A study of Rattus norvegicus with 23 samples.

Results

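The platelet-derived growth factor (PDGF) genes followed here are the receptors Pdgfra and Pdgfrb and the ligand chains Pdgfa, Pdgfb and Pdgfc. They were taken by these 5 names from the authors' tables of differentiating CG4 cells, which name 14690 genes, and were then followed by identifier through the counts of all 23 libraries. Of the 5, 4 had an identifier and are among the 15219 genes listed for every library, namely Pdgfra (ENSRNOG00000002244), Pdgfa (ENSRNOG00000001312), Pdgfb (ENSRNOG00000017197) and Pdgfc (ENSRNOG00000010695). Pdgfrb carried no identifier in these tables and was not analysed here, so the receptor side of the family is represented by Pdgfra alone.

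PDGFs are secreted dimers of related chains that bind receptor tyrosine kinases and pair them, after which the receptors phosphorylate each other and recruit adaptors, phosphatidylinositol 3-kinase and phospholipase C. The alpha receptor binds A, B and C chains, and the beta receptor binds B and D chains. In the brain, PDGFRα marks oligodendrocyte progenitors, PDGF-AA is their classical mitogen and survival factor, and the receptor is lost as the cells mature into myelin-forming oligodendrocytes.

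RNA was sequenced from CG4, an immortalized line derived from rat oligodendroglia, and from primary oligodendroglia of rat brain shaken off mixed glial cultures. Under proliferating conditions both kinds of wild-type cell were kept in basal medium with bFGF and PDGF-AA (3 CG4 and 4 primary libraries), and under differentiating conditions they spent 3 days in SATO medium with T3/T4 and CNTF (4 wild-type primary libraries). The differentiating CG4 cells all carried a vector: 4 libraries came from cells with pCAG-IRES-EGFP (control), 4 from cells with pCAG-myc-Zfp488-IRES-EGFP and 4 from cells with pCAGT7-Nkx2.2-IRES-EGFP, so each factor was driven by the same promoter as the marker in the control. Proliferating CG4 cells carried no vector and were read at 100 bases rather than 150. Neither difference can be told apart from differentiation in CG4. Primary cells carried no vector and were all read at 150 bases. Between CG4 and primary cells the vector therefore goes with the cell system when differentiating, and the read length when proliferating. All CG4 groups are 1 cell line, and neither the share of cells that took up a vector nor the age of the animals is given in the sources used here. PDGF-AA protein was therefore supplied to both proliferating groups, while the counts are of the cells' own transcripts.

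The libraries held 20063345 to 49206479 counts. The overexpressed factors matched their labels, with Zfp488 at 167 ± 29.0 CPM (read counts scaled to the library's total, SD, n = 4) under its own vector against 42.4 ± 11.3 in control cells, and Nkx2-2 at 1621 ± 311 against 271 ± 41.5. All 8 myelin and oligodendrocyte markers listed were measured, and their summed level went from 1319.8 to 1392 CPM in proliferating primary libraries to 91716 to 102023 CPM in differentiating ones, and in CG4 from 1618 to 2673 CPM to 10263 to 17889 CPM in control libraries. The progenitor markers (6 of 8 measured in all libraries) summed to 5420 to 6275 CPM in proliferating CG4 libraries. In proliferating primary ones the sum was 1490 to 1566 CPM. Most of these sums came from Cntn1 (3486 ± 230 and 496 ± 12.6 CPM) and Ptprz1 (2028 ± 313 and 826 ± 30.6 CPM). Of the 6, 4 were higher and 1 lower in CG4, beside 71.2% of all genes tested that differed. The lower one, Cspg4, lay at 1.02 to 8.44 CPM over all CG4 libraries and 93.8 to 109.9 CPM in primary cells. Differentiating primary libraries 1 and 2 resembled each other, as did 3 and 4, more than libraries across these pairs did. Replicates of proliferating CG4 cells differed most, with a chi-square per degree of freedom over genes of 146 to 254 between libraries. A value of 1 would be counting noise. Pairs within the control, Zfp488 and Nkx2.2 groups of CG4 spanned 21.9 to 152. For primary libraries the span was 2.11 to 4.33 before differentiation and 1.74 to 35.5 after it, lowest between libraries 3 and 4. Tests among primary libraries therefore rest on a spread that was mostly smaller than in CG4.

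To show the regulatory sequence beside the levels, the start-site windows of the receptor and of the ligand genes with the largest changes are given from RefSeq (build GRCr8, 250 bases before to 50 bases after the annotated start, 5′ to 3′ on the gene's strand). All 4 measured genes had an entry. Capitals mark matches on either strand to an E-box (CANNTG), the CCAAT box (CCAAT, which reads ATTGG on the other strand) or the GC box (GGGCGG, which reads CCGCCC on the other strand). No matches of these motifs overlapped. The windows are those of Pdgfra at chr14:33408467-33408766 (minus strand), Pdgfa at chr12:20759116-20759415 (plus strand) and Pdgfb at chr7:113438294-113438593 (minus strand).
Pdgfra: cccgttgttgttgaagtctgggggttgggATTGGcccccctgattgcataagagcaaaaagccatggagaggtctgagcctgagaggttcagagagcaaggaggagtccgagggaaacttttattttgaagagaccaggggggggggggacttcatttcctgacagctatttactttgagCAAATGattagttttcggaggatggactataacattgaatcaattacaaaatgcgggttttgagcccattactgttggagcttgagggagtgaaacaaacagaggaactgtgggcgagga
Pdgfa: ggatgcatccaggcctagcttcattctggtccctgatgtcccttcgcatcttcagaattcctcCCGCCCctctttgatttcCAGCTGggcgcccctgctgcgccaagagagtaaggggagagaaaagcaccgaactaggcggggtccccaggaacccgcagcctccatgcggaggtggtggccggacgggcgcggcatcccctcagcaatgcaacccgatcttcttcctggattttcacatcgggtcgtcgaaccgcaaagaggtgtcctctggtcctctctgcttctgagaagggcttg
Pdgfb: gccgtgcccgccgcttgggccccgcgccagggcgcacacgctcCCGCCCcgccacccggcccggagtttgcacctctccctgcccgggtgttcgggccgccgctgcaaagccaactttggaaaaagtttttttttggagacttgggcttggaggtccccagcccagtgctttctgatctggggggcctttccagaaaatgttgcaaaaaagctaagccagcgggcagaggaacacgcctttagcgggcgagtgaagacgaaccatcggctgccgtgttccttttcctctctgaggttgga

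The windows differ in CpG content. Pdgfra holds 5 CpG and 48% G and C, below the median of 7 CpG and 51.7% over 33469 rat promoters of the same length. Pdgfa holds 17 CpG and 60%, and Pdgfb 22 CpG and 62%, which is more CpG than in 71.0% and 79.0% of those promoters. An E-box stands in the Pdgfra and Pdgfa windows (72.1% of all promoters have 1 or more), a CCAAT box in that of Pdgfra (37.5%) and a GC box in those of Pdgfa and Pdgfb (33.1%). The letters TNAAGTG, a core bound by NKX2 factors (11.5% of promoters), and TATAAA (14.2%) were searched on both strands and do not occur in these windows. These are matches of letters only, and no binding was measured.

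Pdgfra, the receptor, was highest in proliferating CG4 cells, next in proliferating primary cells and lower in all 4 differentiating groups. Its level in proliferating CG4 libraries was 1105, 1537 and 2052 CPM in library order, a mean of 1565 ± 474 (SD, n = 3). Proliferating primary libraries lay at 538, 556, 561 and 574 CPM, below every proliferating CG4 library and above every other library. Differentiating primary libraries stood closely together at 359, 362, 368 and 367 CPM. The differentiating CG4 libraries were more widely spread, at 479, 457, 307 and 314 CPM in control, 453, 491, 298 and 408 with Zfp488, and 464, 353, 235 and 240 with Nkx2.2. In the order of group means (Zfp488 412 ± 83.9, control 389 ± 91.5, differentiating primary 364 ± 4.39, Nkx2.2 323 ± 109 CPM, n = 4 each) all neighbours among the differentiating groups overlapped.

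**Figure D1:**
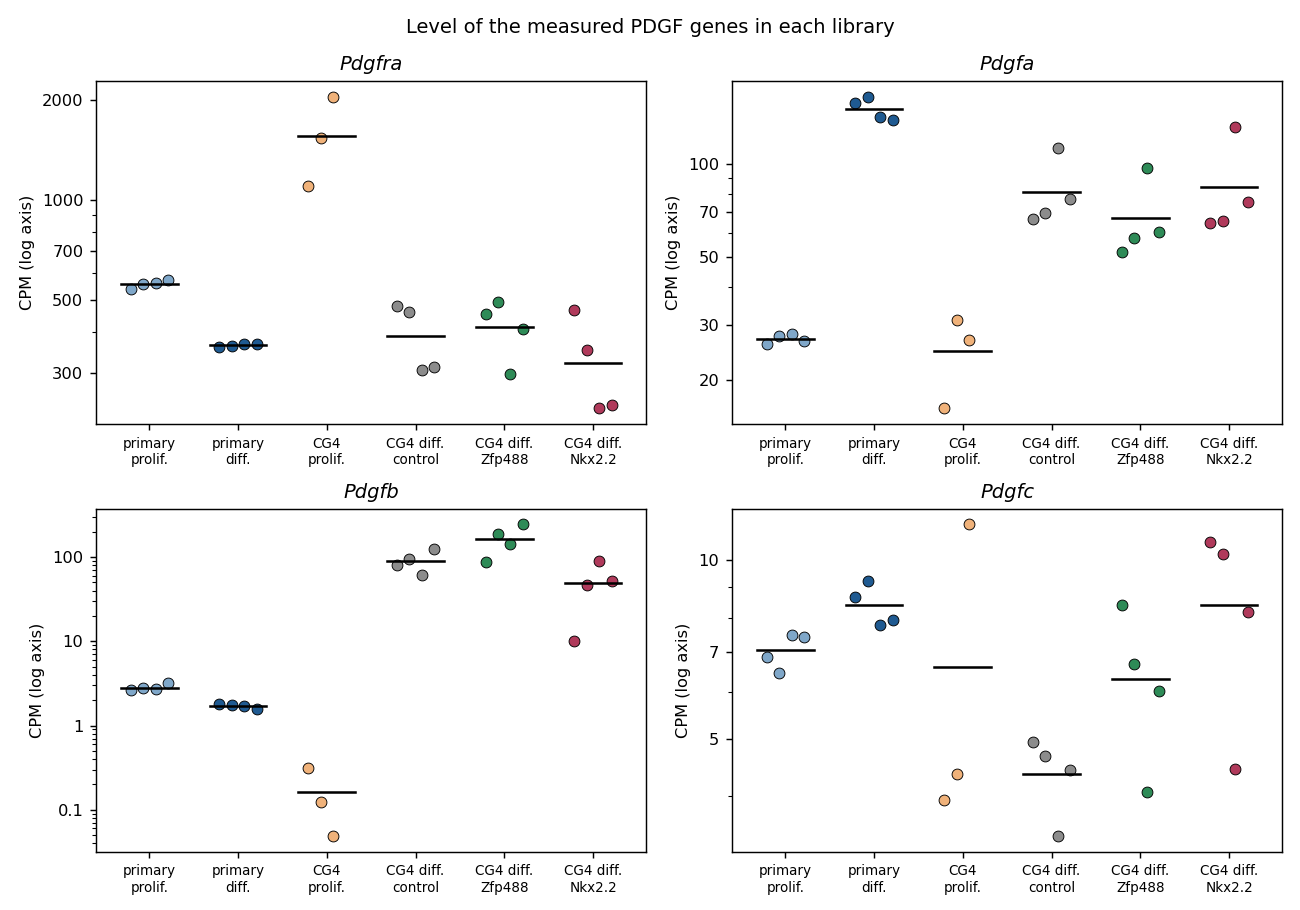
Level of each measured PDGF gene in the 23 libraries, in CPM on log axes. Points are libraries in library order within a group and horizontal bars are group means. Pdgfra is highest in the 3 proliferating CG4 libraries, Pdgfa is higher in every differentiating library than in any proliferating one, and Pdgfb separates differentiating CG4 cells (9.98 to 245 CPM) from the other 3 groups (0.0485 to 3.17 CPM).

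Pdgfa, the A chain, ran the other way: each of the 16 differentiating libraries lay above each of the 7 proliferating ones. Proliferating primary libraries were at 26.2, 27.8, 28.0 and 26.7 CPM (mean 27.2 ± 0.901) and proliferating CG4 libraries at 16.1, 31.3 and 27 CPM (24.8 ± 7.82), and these groups overlapped. Differentiating primary libraries reached 158, 166, 143 and 139.5 CPM (152 ± 12.5), above all CG4 libraries. Control CG4 libraries were at 66.7, 69.3, 113 and 77.0 CPM (81.5 ± 21.5), Zfp488 libraries at 51.9, 57.7, 97.4 and 60.2 (66.8 ± 20.7), and Nkx2.2 libraries at 64.3, 65.4, 132 and 75.2 (84.2 ± 32.2). In each of these 3 groups the library numbered 3 was the highest, and the groups overlapped.

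Pdgfb, the B chain, was lowest in proliferating CG4 cells, low in primary cells and highest in differentiating CG4 cells. It had 13, 4 and 2 counts in the proliferating CG4 libraries, or 0.313, 0.125 and 0.0485 CPM, below every other library. Primary cells held it at 2.62, 2.76, 2.68 and 3.17 CPM while proliferating and at 1.80, 1.73, 1.69 and 1.59 CPM when differentiating, groups that did not overlap. Differentiating CG4 libraries lay far above these, at 79.8, 94.0, 61.3 and 125 CPM in control (mean 90.0 ± 26.9), 88.0, 186, 142 and 245 with Zfp488 (166 ± 66.8), and 9.98, 47.0, 90.2 and 51.5 with Nkx2.2 (49.7 ± 32.8). The 3 differentiating CG4 groups overlapped with their neighbours in this order, and even the lowest of their libraries, Nkx2.2 library 1, exceeded every primary library.

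Pdgfc, a chain that is secreted in latent form and released by proteolysis, varied least between groups of the 4, with group means between 4.36 and 8.41 CPM. All neighbours in the order of its group means overlapped. Its libraries were at 6.86, 6.45, 7.47 and 7.43 CPM in proliferating primary cells, 8.69, 9.24, 7.78 and 7.93 in differentiating primary cells, and 3.94, 4.35 and 11.5 in proliferating CG4 cells, where library 3 stood apart. Control CG4 libraries were at 4.94, 4.67, 3.42 and 4.42 CPM, Zfp488 libraries at 8.41, 6.69, 4.06 and 6.03, and Nkx2.2 libraries at 10.7, 10.3, 4.44 and 8.18. Here the libraries numbered 3 were the lowest of each differentiating CG4 group.

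The first comparison asked how the family changes as primary oligodendroglia differentiate. Pdgfra and Pdgfb fell and Pdgfa and Pdgfc rose, so 4 of 4 genes passed the test, as did 84.8% of the 12310 genes tested in these libraries, and a call in this comparison sets the family apart from few other genes. Pdgfa rose 5.75-fold (log2 fold change 2.52 ± 0.06 SE, adjusted p = 1.30e-11, edgeR's quasi-likelihood test with Benjamini-Hochberg adjustment over all genes tested, 4 against 4 libraries). The receptor Pdgfra fell by 0.57 ± 0.04 on the log2 scale (adjusted p = 5.81e-08), to 364 from 557 CPM. Pdgfb fell by 0.68 ± 0.12 (adjusted p = 0.000263), from 336 counts summed over the proliferating libraries to 163 over the differentiating ones. Pdgfc rose by 0.30 ± 0.09 (adjusted p = 0.00694), a call that was lost without differentiating libraries 1 and 2 (0.21, adjusted p = 0.0640) and with upper-quartile scaling (0.13, adjusted p = 0.191).

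Markers of other cells moved in the same comparison. The microglia markers measured, Csf1r and Cd68 (2 of 8 listed), summed to 442 to 461 CPM in proliferating primary libraries and 17.9 to 24.1 CPM in differentiating ones, and to 3.39 to 8.79 CPM in all CG4 libraries. The 3 of 13 pericyte, fibroblast and endothelial markers measured (Col1a1, Col3a1 and Abcc9) summed to 57 to 79.0 CPM and 5.54 to 10.6 CPM in the same primary groups. Astrocyte markers (5 of 6 measured) went the other way, from 187 to 196 CPM to 1066 to 2214 CPM, with a rise of Gfap by 7.97 ± 0.37. Neuron markers (6 of 7 measured) summed to 756 to 786 CPM in proliferating and 401 to 497 CPM in differentiating primary libraries, with 5 falling and 1 rising. Progenitor markers summed to 2517 to 2643 CPM in differentiating primary libraries. Of these 3 of 6 rose and 0 fell, or 2 rose and 1 fell with upper-quartile scaling. The rise of this sum lay mostly in Cntn1, from 496 ± 12.6 to 1530 ± 74.8 CPM, with Ptprz1 at 826 ± 30.6 and 807 ± 49.0 CPM. The counts of marker genes in this comparison stand beside the 84.8% of all genes called. Some of these cell classes are known to express PDGF chains or receptors. The part of any of the classes in the values of Pdgfb and Pdgfra was not tested. In such bulk libraries fewer cells of a type and less RNA per cell cannot be told apart.

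In the pathway lists in primary cells, the counts stand beside the 84.8% of all 12310 genes called, 5111 rising and 5328 falling. Of 11 receptor attenuation genes tested 7 fell and 3 rose, with a median log2 change of -0.60 against -0.02 over all genes. Those that fell include the ubiquitin ligase gene Cblb (-1.39 ± 0.05), the phosphatase gene Ptpn1 (-0.71 ± 0.04) and the inhibitory adaptor gene Sh2b3 (-1.27 ± 0.04). Adaptors and kinases recruited by the receptor divided, with 12 rising and 10 falling of 25 and a median of 0.15. Of these the Src-family kinase Fyn rose by 2.02 ± 0.05, and the adaptor Shc1 (-2.08 ± 0.05) and the exchange factor Vav3 (-3.16 ± 0.08) fell. In the ERK and AKT cascade 8 of 16 rose and 5 fell (median 0.12), among them the kinase Mapk3 (ERK1) up by 2.05 ± 0.04 and Akt1 down by 1.1 on the log2 scale. With upper-quartile scaling, which lowered the median of all genes in this comparison to -0.20, the counts were 8 rising and 10 falling for the adaptors and 6 and 6 for the cascade.

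Beside the same 84.8% of all genes called, 4 of 9 genes of ligand processing and retention rose and 2 fell, with a median of 0.01. Pcsk6, a proprotein convertase, rose by 2.07 ± 0.13, the convertase Furin fell by 0.64 ± 0.05, and Plaur, the urokinase receptor, fell by 6.48 ± 0.14, to 0.320 from 31.2 CPM. Of 8 other family members tested (VEGFs, their receptors and class III receptor kinases) 4 rose and 4 fell (median -0.39), with falls of Vegfa (-1.08 ± 0.06), of the VEGF receptor gene Flt1 (-3.49 ± 0.19) and of Csf1r, the CSF1 receptor of microglia (-4.58 ± 0.08). Among the FGF genes, which share the mitogenic role of PDGF in these cells, Fgfr2 (5.0 ± 0.07) and Fgfr3 (3.67 ± 0.05) rose and Fgfr1 (-0.69 ± 0.11) fell, 3 of 5 tested.

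The second comparison set control CG4 cells after 3 days of differentiation against proliferating CG4 cells. Here 3 of 4 PDGF genes passed, Pdgfra falling and Pdgfa and Pdgfb rising, beside 65.8% of 12486 genes. Pdgfra fell by 1.98 ± 0.26 on the log2 scale (adjusted p = 0.000258, edgeR's quasi-likelihood test, 4 against 3 libraries), 3.93-fold, and every control library lay below every proliferating one. Pdgfa rose by 1.74 ± 0.28 (adjusted p = 0.000774), 3.35-fold. Pdgfb rose by 9.09 ± 0.52 (adjusted p = 3.12e-06), and the 15085 counts of the control libraries against 19 in the proliferating ones give a ratio of 557 per total count, with an exact 95% interval of 356 to 925 that covers counting error only. Pdgfc differed by -0.57 ± 0.40 and did not pass (adjusted p = 0.234), and without proliferating library 3 the difference was 0.10 (adjusted p = 0.769).

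Cell markers moved in CG4 differentiation as well. Of 6 progenitor markers 4 fell and 0 rose, beside 65.8% of all genes called. Their sum was 2188 to 2361 CPM in control libraries. The 5 of 6 astrocyte markers measured summed to 145 to 308 CPM in proliferating CG4 libraries and 539.5 to 2467 CPM in control libraries, and Gfap rose by 12.77 ± 1.28, from 0 to 0.315 CPM to 235 to 2141 CPM. Astrocyte markers rose in primary differentiation too. Pericyte, fibroblast and endothelial markers summed to 0.289 to 1.12 CPM and 3.23 to 12.3 CPM in these groups. Col1a1 rose (4.74 ± 0.85) and made up most of the sum in control libraries. Abcc9 lay lower in control, at 0.272 CPM in proliferating and 0.130 CPM in control cells, and Col3a1 at 0.0313 and 0.159 CPM. The part of all these markers in the PDGF values was not tested. Proliferation markers fell in both cell systems, 7 of 7 in each, beside 84.8% of all genes called in primary and 65.8% in CG4 differentiation.

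**Figure D2:**
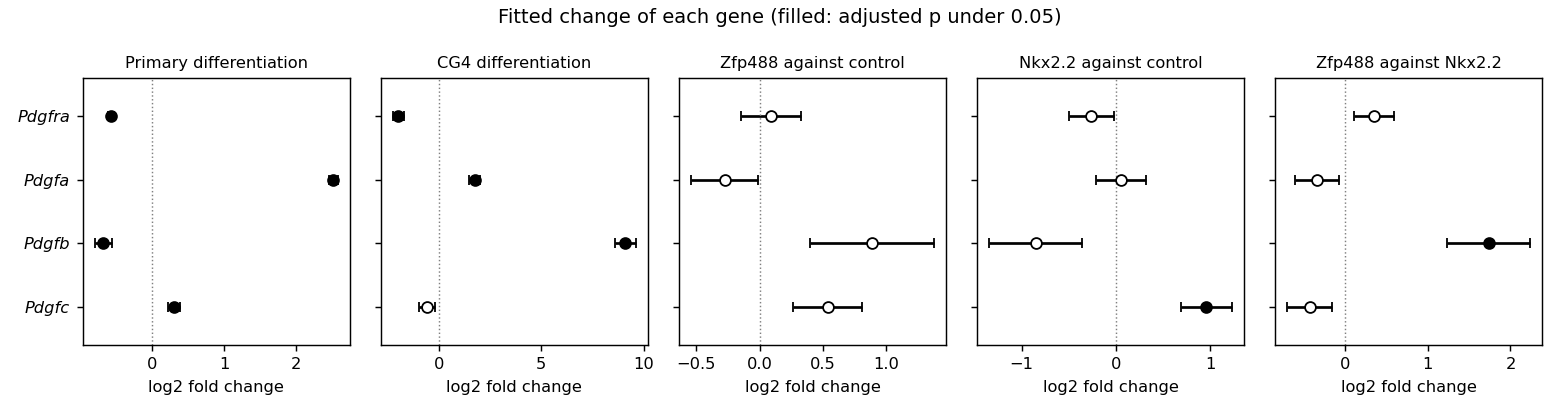
Fitted log2 fold change of each gene in 5 comparisons, with its standard error as the bar; the scale of the horizontal axis differs between panels. Filled points have an adjusted p under 0.05 in edgeR's quasi-likelihood test. In both differentiation panels Pdgfra lies left of 0 and Pdgfa right of 0, while Pdgfb lies at -0.68 in primary cells and at 9.09 in CG4 cells.

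In the pathway lists in CG4 cells, the counts stand beside the 65.8% of all genes called. Of 9 ligand-processing genes 6 rose and 0 fell, with a median of 1.86 against 0.01 over all genes. Furin (1.86 ± 0.29) and Pcsk6 (2.48 ± 0.17), proprotein convertases able to cleave PDGF precursors, rose, and so did Sparc (7.43 ± 0.65), a matrix protein that binds B-chain dimers and stood at 574 ± 62.1 CPM in control against 3.35 ± 2.33 CPM in proliferating cells. Of 6 FGF genes 5 rose, among them Fgfr1 (1.69 ± 0.27), Fgfr3 (3.93 ± 0.31) and the ligand Fgf2 (5.94 ± 0.95). In the ERK and AKT cascade 11 of 16 fell and 4 rose (median -0.59), with falls of Braf (-2.36 ± 0.18) and Pdpk1 (-2.99 ± 0.22), and of 25 adaptors and kinases 12 fell and 5 rose (median -0.34), with falls of Crk (-1.39 ± 0.15) and Pik3cb (-1.85 ± 0.17) and a rise of Pik3r2 (1.06 ± 0.12). Cbl, the ubiquitin ligase that marks activated receptors for degradation, fell by 4.28 ± 0.30, from 265 ± 25.8 to 13.3 ± 4.72 CPM, and Cblb and the phosphatase Acp1 fell too, among 5 of 11 attenuation genes that fell and 1 that rose. With upper-quartile scaling the rising and falling genes were 4 and 9 in the cascade, 5 and 9 among the adaptors and 2 and 4 in attenuation. Of 7 other family members tested 4 rose and 0 fell, with the VEGF receptor gene Kdr at 3.07 ± 0.41, Vegfa at 2.45 ± 0.70 and Vegfb at 0.90 ± 0.13.

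Whether the 2 systems respond differently was tested with an interaction term over 15 libraries, and 3 of 4 genes differed, beside 69.3% of 13207 genes. The fall of Pdgfra was larger in CG4 by 1.36 ± 0.25 on the log2 scale (adjusted p = 0.000217, edgeR). This fit, also used for the 2 comparisons between the systems below, takes 1 spread per gene for tight primary and scattered CG4 libraries. Its SE can therefore understate the spread of CG4 (Pdgfra 0.25 here, 0.26 in CG4 differentiation alone). The response of Pdgfb differed by 9.81 ± 0.44 (adjusted p = 1.38e-10), with opposite directions in the 2 systems. The rise of Pdgfa was smaller in CG4, by -0.73 ± 0.27 (adjusted p = 0.0242), but this call was lost with upper-quartile scaling (-0.46, adjusted p = 0.136), without differentiating primary libraries 1 and 2 (-0.63, 0.0973), and without proliferating CG4 library 2 (-0.54, 0.0757) or 3 (-0.68, 0.0534). The response of Pdgfc differed by -0.82 ± 0.39 and did not pass (adjusted p = 0.0767), although it did without proliferating CG4 library 1 (-1.1, 0.0124) or 2 (-1.05, 0.0223).

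The pathway counts of the interaction stand beside the 69.3% of all genes called. In the ERK and AKT cascade 9 of 16 genes responded lower in CG4, among them Nras (-2.94 ± 0.19) and Pdpk1 (-3.12 ± 0.22), and 2 higher. Of 25 adaptors 14 responded lower and 8 higher. Shc1 fell in primary cells, and its response was higher in CG4 by 3.52 ± 0.17, while Gab1 (-2.52 ± 0.14) and Ptpn11 (-2.16 ± 0.12), docking protein and phosphatase of the receptor complex, responded lower. Of 9 ligand-processing genes 4 responded higher and 0 lower (Furin 2.54 ± 0.28, Plaur 10.51 ± 0.72, Sparc 5.79 ± 0.57), and of 9 other family members 5 higher and 1 lower, of 6 FGF genes 3 and 1, and of 11 attenuation genes 3 and 3.

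Compared after 3 days of differentiation, control CG4 and primary cells differed in 3 of 4 PDGF genes, beside 73% of 13207 genes. Pdgfb was higher in CG4 by 5.73 ± 0.26 (52.9-fold, adjusted p = 1.62e-10, edgeR), and Pdgfa and Pdgfc were lower by log2 differences of -0.89 ± 0.18 (adjusted p = 0.000462) and -0.94 ± 0.27 (adjusted p = 0.00605). The Pdgfc difference had an adjusted p of 0.0517 without differentiating primary libraries 1 and 2. The receptor did not pass (Pdgfra 0.11 ± 0.17, adjusted p = 0.581). Before differentiation 2 of 4 genes differed, beside 71.2% of 13207 genes: Pdgfra was 2.76-fold higher in CG4 (1.47 ± 0.18, adjusted p = 4.81e-06) and Pdgfb lower by a log2 difference of -4.08 ± 0.38 (adjusted p = 1.82e-07). Neither Pdgfa (-0.15 ± 0.20, adjusted p = 0.499) nor Pdgfc (-0.12 ± 0.29, 0.727) passed, but without proliferating CG4 library 3 Pdgfc was lower at -0.76 (adjusted p = 0.00134). These 2 comparisons and the interaction share their libraries with the differentiation comparisons. In the proliferating one the microglia markers noted above differ between the systems as well. The vector cannot be told apart from the cell system in the differentiating comparison, nor the read length in the proliferating one. Both enter the interaction.

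Around the receptor, the counts stand beside the 73% of all genes called between differentiating systems and the 71.2% between proliferating ones. Differentiating control CG4 cells had lower levels than primary cells in 17 of 25 adaptor genes and higher levels in 7. They were lower in 10 and higher in 1 of 16 cascade genes, and higher in 5 and lower in 2 of 9 ligand-processing genes. Ptpn11 was lower by a log2 difference of -2.38 ± 0.09 and Shc1 higher by 2.84 ± 0.12. Of 11 attenuation genes 2 were higher and 4 lower, of 6 FGF genes 4 and 1, and of 9 other family members 4 and 1. In proliferating cells the splits were 6 higher and 7 lower of 25 adaptors, 8 and 4 of 16 in the cascade, 2 and 5 of 9 in ligand processing, 2 and 2 of 11 in attenuation, 2 and 2 of 6 FGF genes and 2 and 3 of 9 other family members. With upper-quartile scaling the adaptors in proliferating cells were 4 higher and 11 lower and the attenuation genes 1 higher and 4 lower. Kit, a class III receptor kinase like the PDGF receptors, was higher in proliferating CG4 by 2.14 ± 0.20 and Cbl by 2.17 ± 0.20.

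The next comparisons asked whether Zfp488 or Nkx2.2 changes the family in differentiating CG4 cells, with 4 libraries per group in 1 fit of 12 libraries. The 2 comparisons with control share the control libraries. Libraries with the same number deviated together across the 3 groups, so the blocked values are given where they change a call. The block also raised the number of genes called, of 14811 tested, to 3576 for Zfp488 and 3876 for Nkx2.2. For Zfp488 against Nkx2.2 it rose to 6276. Blocked counts therefore stand beside larger shares of all genes than those quoted without the block.

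With Zfp488, 0 of 4 PDGF genes passed edgeR's test beside 9.04% of 14811 genes, 0 had an unadjusted p under 0.05, and 0 passed with DESeq2. Pdgfb had the largest difference, 0.89 ± 0.49 (adjusted p = 0.293), and was higher than in the control library of the same number in 4 of 4 pairs, by 0.14 to 1.22 on the log2 scale. The authors' deposited table gives Pdgfb the same size of change, 0.89, with an adjusted p of 0.0271. Pdgfc (0.54 ± 0.27, adjusted p = 0.250) was higher in 4 of 4 pairs and passed with the replicate block (0.51, adjusted p = 0.0184). Pdgfa (-0.28 ± 0.26, adjusted p = 0.565) was lower in 4 of 4 pairs and also passed with the block (-0.29, adjusted p = 0.00870). The receptor Pdgfra (0.09 ± 0.24, adjusted p = 0.852) was higher in 2 pairs and lower in 2. Other cell markers moved in this comparison as well. The oligodendrocyte markers summed to 17857 to 33458 CPM with Zfp488 (3 of 8 rose, and 8 of 8 with the replicate block). The pericyte, fibroblast and endothelial markers summed to 11.2 to 34.9 CPM. Of these Col3a1 rose (5.51 ± 0.77), from 0.159 ± 0.0780 CPM in control to 7.44 ± 6.71 CPM. Of the astrocyte markers Gja1 rose (1.60 ± 0.39) and Slc1a3 fell (-0.79 ± 0.19), of the neuron markers Tubb3 rose (1.70 ± 0.35) and Syt1 fell (-0.80 ± 0.20), and of 7 progenitor markers C1ql1 fell (-0.74 ± 0.16). With the block the astrocyte and neuron markers each had 2 rising and 2 falling, and 3 progenitor markers fell. Their part in the PDGF values was not tested.

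With Nkx2.2, 1 of 4 genes passed beside 10.6% of 14811 genes. Pdgfc rose by 0.96 ± 0.27 (1.95-fold, adjusted p = 0.0422, edgeR) and was higher in 4 of 4 pairs, with an adjusted p of 0.000589 under the replicate block. DESeq2 gave 0.96 with an adjusted p of 0.00744, and the authors' deposited table gives Pdgfc 0.97 with an adjusted p of 0.00556. In edgeR without the block the call was close to the threshold: the adjusted p was 0.0544 when only the 8 libraries compared were fitted and 0.0564 to 0.123 when 1 library was left out, in 9 of 12 such fits (each control library, Zfp488 libraries 2 and 4, and Nkx2.2 libraries 1, 2 and 4). Pdgfb (-0.85 ± 0.49, adjusted p = 0.312) was lower in 3 pairs and higher in the pair numbered 3. Pdgfra (-0.26 ± 0.24, adjusted p = 0.536) was lower in 4 of 4 pairs, and Pdgfa (0.06 ± 0.26, adjusted p = 0.916) was higher in 1 pair and lower in 3. The pericyte, fibroblast and endothelial markers summed to 9.67 to 16.1 CPM. Of these Abcc9 rose (2.56 ± 0.52), from 0.130 ± 0.0979 CPM in control to 0.787 ± 0.0619 CPM. The oligodendrocyte markers summed to 6377 to 17458 CPM with 0 of 8 passing edgeR's test, or 1 rising and 1 falling with the replicate block. Of 7 progenitor markers 1 rose, or 2 rose and 2 fell with the block. The part of these markers in the PDGF values was not tested.

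**Figure D3:**
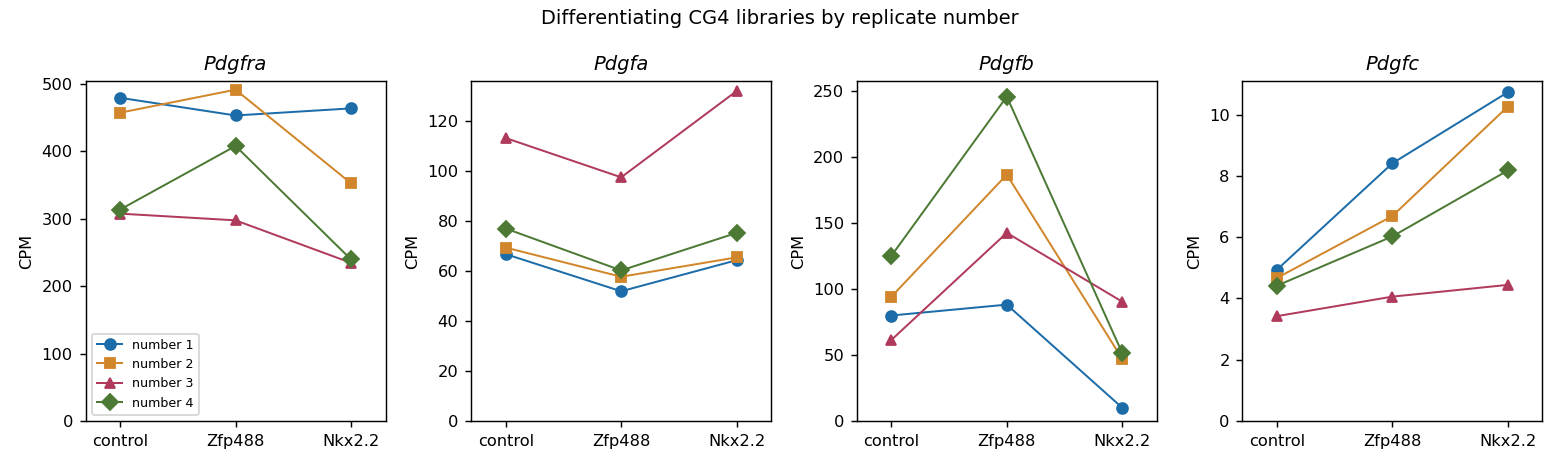
Level of each gene in the 12 differentiating CG4 libraries, in CPM from 0, with lines joining libraries of the same replicate number across control, Zfp488 and Nkx2.2. The libraries numbered 3 are highest for Pdgfa and lowest for Pdgfc in all 3 groups, and every line lies higher than its control for Pdgfc with either factor.

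Set directly against each other, the 2 factors differed in 1 of 4 genes, beside 25.3% of 14811 genes. Pdgfb was 3.33-fold higher with Zfp488 than with Nkx2.2 (1.74 ± 0.50, adjusted p = 0.0247, edgeR) and higher in 4 of 4 pairs. The Nkx2.2 libraries span 9.98 to 90.2 CPM and the Zfp488 libraries 88.0 to 245 CPM, so the groups overlap. The adjusted p was 0.0511 in a fit of the 8 libraries alone, and 0.0559 and 0.0728 without Zfp488 library 2 and 4, and 0.0636 and 0.0567 without Nkx2.2 library 2 and 4. With the replicate block, which called 6276 of 14811 genes, all 4 genes passed. Pdgfra was higher with Zfp488 (0.39, adjusted p = 0.0124), and Pdgfa (-0.32, 0.00280) and Pdgfc (-0.40, 0.0281) were lower. Without it these were 0.35 ± 0.24 (adjusted p = 0.294), -0.34 ± 0.27 (0.374) and -0.42 ± 0.27 (0.272). Cell markers differed between the factors too. With Zfp488 the oligodendrocyte markers were higher in 5 of 8 (median 0.88, and 8 of 8 with the block), proliferation markers lower in 4 of 7, progenitor markers higher in 1 and lower in 3 of 7, astrocyte markers higher in 2 and lower in 1 of 5, and Col3a1 was higher by 3.11 ± 0.65. Their part in the Pdgfb difference was not tested.

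The 4 genes also varied together among libraries of 1 group. Over the 12 differentiating CG4 libraries, after the group means were removed, Pdgfa deviated against Pdgfc (Pearson r = -0.97) and against Pdgfra (-0.79), while Pdgfra and Pdgfc deviated together (0.79). Pdgfb was more loosely related to the others (-0.55 with Pdgfra, 0.35 with Pdgfa and -0.52 with Pdgfc). These are descriptions over libraries that share replicate numbers. The libraries numbered 3 were the highest in Pdgfa and the lowest in Pdgfra and Pdgfc in each group. With the libraries numbered 3 left out of the fit, Pdgfa was lower with Zfp488 than with Nkx2.2 by a log2 difference of -0.28 (adjusted p = 0.0492).

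**Figure D4:**
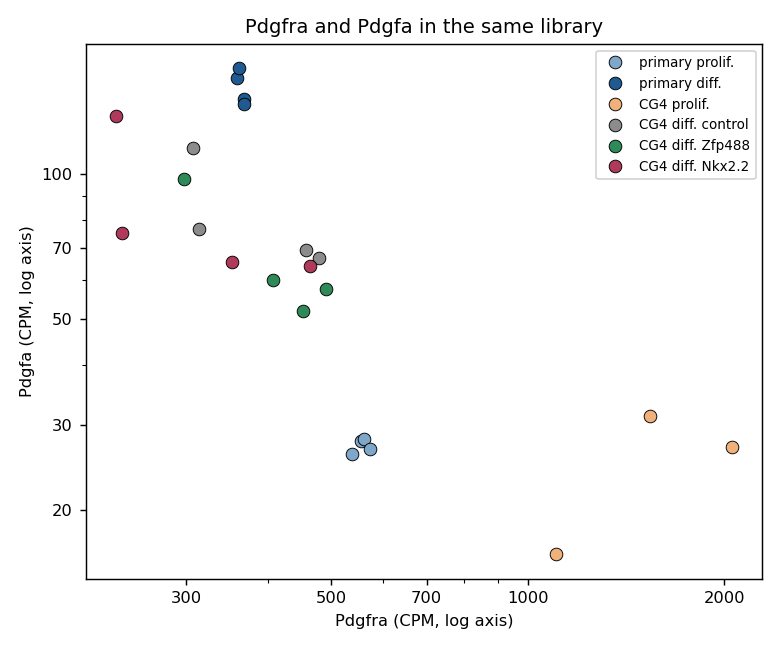
Pdgfa against Pdgfra in the same 23 libraries, both in CPM on log axes, coloured by group. Proliferating libraries lie to the lower right, with Pdgfra at 538 CPM or more and Pdgfa at 31.3 CPM or less, and differentiating libraries to the upper left, with Pdgfra at 491 CPM or less and Pdgfa at 51.9 CPM or more, with the 4 differentiating primary libraries topmost.

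With Zfp488, 1 gene passed in each of 6 pathway lists, beside 9.04% of all genes. Furin was the 1 of 9 ligand-processing genes that rose (1.33 ± 0.27, adjusted p = 0.0126), from 109.9 ± 38.7 to 274 ± 102 CPM. Src fell by 0.31 ± 0.07 as the 1 of 25 adaptors, Map2k1, the ERK kinase MEK1, rose by 0.39 ± 0.07 as the 1 of 17 in the cascade, and Ptprj, a phosphatase that acts on PDGF receptors, fell by 0.42 ± 0.11 as the 1 of 13 attenuation genes. Fgfr3 fell by 0.70 ± 0.19 (1 of 6 FGF genes). Csf1r was the 1 of 9 other family members that rose (1.20 ± 0.31), at 0.397 to 0.795 CPM against 0.197 to 0.361 CPM in control libraries. With the replicate block more passed, as over all genes (3576 of 14811). They were 3 rising ligand-processing genes, 4 rising and 2 falling adaptors, 2 rising and 1 falling attenuation genes and 1 rising and 1 falling FGF gene.

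With Nkx2.2, Pdgfrl, a receptor-like protein related to the extracellular part of PDGF receptors, rose by 1.64 ± 0.26 (adjusted p = 0.00181), from 0.603 to 1.21 CPM in control libraries to 1.86 to 2.95 CPM. Kit (-0.82 ± 0.18) and Kdr (-0.83 ± 0.22) fell, the other calls among 9 family members. Without the block, the counts with Nkx2.2 stand beside 10.6% of all genes called, and those between the factors beside 25.3%. Of the ligand-processing genes 4 of 9 fell and 1 rose (median -0.16), including Nrp1, a co-receptor (-2.52 ± 0.37), Plat, the tissue plasminogen activator that activates PDGF-CC (-0.88 ± 0.15, from 23.9 ± 2.91 to 12.8 ± 2.2 CPM), and Plaur (-1.54 ± 0.37). Src (0.83 ± 0.07) and Stat5a (0.62 ± 0.13) rose and Fyn fell (-0.51 ± 0.13), 3 of 25 adaptors, and Fgfr4 rose (2.53 ± 0.25), 1 of 6 FGF genes. In the cascade 0 of 17 and in attenuation 0 of 13 passed edgeR's test. With the replicate block (3876 of 14811 genes called) the adaptors were 6 rising and 2 falling, the family members 3 and 4, and the cascade 1 and 1. Directly compared, Zfp488 cells had 5 ligand-processing genes higher and 1 lower than Nkx2.2 cells (median 1.12 against -0.01 over all genes), with Plat (1.38 ± 0.16), Plaur (2.45 ± 0.37) and Nrp1 (2.66 ± 0.37) higher, and Src lower (-1.14 ± 0.07). The other lists in that comparison gave 2 higher and 4 lower adaptors, 2 and 1 cascade genes, 0 and 1 attenuation genes, 1 and 2 FGF genes and 2 and 1 other family members. With the replicate block 6276 of 14811 genes were called. The splits were then 4 and 5 adaptors, 2 and 2 cascade genes, 1 and 1 attenuation genes and 4 and 1 other family members.

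Transcription factors tied to Pdgfra in oligodendroglia were read beside it. Nkx2-2, which is known to repress Pdgfra at the onset of differentiation, fell in differentiating primary cells (-1.82 ± 0.25) and rose in differentiating control CG4 cells (2.04 ± 0.36), while Pdgfra fell in both. Sox5, which together with Sox6 is known to maintain Pdgfra, rose with Nkx2.2 by 2.59 ± 0.26 (adjusted p = 7.41e-05), from 5.80 ± 1.86 to 34.6 ± 7.93 CPM, and did not pass with Zfp488 (-0.03 ± 0.25, adjusted p = 0.957). Sox6 fell in CG4 differentiation by 2.57 ± 0.26, from 826 ± 91 to 136 ± 44.7 CPM, and Sox5 fell by 1.99 ± 0.33, and neither passed in primary differentiation (Sox5 -0.08 ± 0.08, adjusted p = 0.345, and Sox6 -0.24 ± 0.14, 0.128). Olig2 rose in primary cells (0.52 ± 0.05) and did not pass in CG4 cells (-0.40 ± 0.18, adjusted p = 0.0841). Over the 12 factors listed, 8 rose and 2 fell in primary differentiation (beside 84.8% of all genes called) and 5 and 4 in CG4 differentiation (65.8%). The splits were 2 and 2 with Zfp488 (9.04%), 2 and 0 with Nkx2.2 (10.6%), and 2 and 4 with Zfp488 against Nkx2.2 (25.3%). With the replicate block these last 3 splits were 3 and 5, 4 and 0, and 5 and 6. They stand beside 3576, 3876 and 6276 of 14811 genes called. The list holds both introduced genes, whose rise under their own vectors was set by the design. With Zfp488, 1 of the 2 rising genes was Zfp488 itself (1.99 ± 0.23). With Nkx2.2, 1 of the 2 was Nkx2-2 itself (2.60 ± 0.21). Both genes also belong to the list in the direct and blocked splits. The interaction was higher for 2 and lower for 9 (beside 69.3% of all genes called). CG4 cells were higher for 1 and lower for 7 while differentiating (73%) and higher for 6 and lower for 5 while proliferating (71.2%).

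The genes most like the receptor across all 23 libraries were sought among 10404 named genes that reach 5 CPM in some group, by Pearson's r of log2 CPM. For Pdgfra they were Clasp1, a microtubule-binding protein (r = 0.961), Ipo9, an importin (0.956), Bnip2 (0.956), Plrg1, a splicing factor (0.956), and Prkce, a protein kinase C (0.95). All 5 shared its highest level in proliferating CG4 cells, as in Clasp1 with 211 ± 23.8 CPM there against 107 ± 4.57 in proliferating primary cells and 75.2 ± 7.80 in differentiating primary cells. For Pdgfa they were Frs3, an adaptor of FGF receptors (0.975), Gal3st1, the sulfotransferase that makes the myelin lipid sulfatide (0.974), Fgfr2 (0.968), Zbtb47, a zinc finger protein (0.961), and Jkamp (0.959). Gal3st1 stood at 316 ± 19.1 CPM in differentiating primary cells, 157 ± 49.5 in control CG4 cells and 56.6 ± 2.99 in proliferating primary cells. Within the 12 differentiating CG4 libraries alone r with Pdgfa was 0.885 for Frs3 and 0.918 for Gal3st1. It was 0.590 for Fgfr2, 0.535 for Jkamp and 0.523 for Zbtb47, so the likeness of these last genes lies mostly between groups.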

How the data were processed

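Each library came as 1 table of raw counts per gene, deposited as such. Per the submitters' processing notes, the tools were Trimmomatic 0.36, STAR 2.5.2b and featureCounts of Subread 1.5.2, and the build was rn6. Strand use, multiply matching reads and the annotation release are described nowhere in the sources used here, so reads of overlapping or antisense genes may be shared. For either factor the authors deposited a table of log2 fold changes and p-values from DESeq2, per the notes, with a normalized signal per library. Only gene names and the quoted Pdgfb and Pdgfc values were taken from these tables. Titles call the libraries biological replicates, and p-values measure the spread between them alone.

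The counts went through edgeR 4.0.16 (R 4.3.3), with TMM factors, the filterByExpr filter and its two-sided quasi-likelihood test. Benjamini-Hochberg adjustment ran over all genes tested, and a gene was called at an adjusted p under 0.05. CPM is edgeR's count scaled to the library total, here with TMM over 23 libraries on 15219 genes and totals of 20063345 counts or more. CPM was not divided by gene length, so levels of different genes were not compared. Log2 CPM held a prior count of 2. SE is the absolute log2 fold change over the root of the F statistic.

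The family members and gene lists were chosen with earlier results of these data known. Genes named are the members, up to 3 called genes per list with the smallest adjusted p, Nkx2-2, Sox5, Sox6 and Olig2, and the 5 most like Pdgfra and Pdgfa (symbols that are clone placeholders left out). Some genes that this rule would name are not reported here. Which list genes are shown with levels was chosen after their values were seen.

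To see whether equal replicate numbers pair libraries, deviations from the group means were correlated over 8933 genes. For Zfp488 with control r was 0.122 to 0.833, for Nkx2.2 with control 0.152 to 0.609, and for Zfp488 with Nkx2.2 0.350 to 0.685. All exceed 0.1, and the differentiating CG4 libraries were taken as paired, although no label explains the numbers. No 2 replicates of a group differed by as little as counting noise. The alternatives were RLE and upper-quartile scaling, no filter, DESeq2 1.42.0, thinned counts, the replicate block, other sets of libraries and leaving out each library. On simulated data 100 genes were changed by 1 on the log2 scale. The procedure called 88% of them for Zfp488 against control, 99% for primary and 58% for CG4 differentiation, and 56% for the interaction. The simulated counts were drawn independently for each library, without effects shared by replicate number, and only genes above a count floor were changed. These shares therefore do not give the power for the PDGF genes themselves.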

Additional observations from a re-analysis of the deposited data

Results flagged for a closer look

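The differentiation responses of Pdgfra, Pdgfa and Pdgfb differed between CG4 and primary cells in the interaction test, by log2 differences of -1.36, -0.73 and 9.81. That of Pdgfa, unlike the other 2, was lost under several alternatives. In the Nkx2.2 group the library numbered 3 stood apart from the others for Pdgfa, at 132 CPM. Its gap to the nearest other library was 0.839 of the group's range, above Dixon's 95% critical value for 4 libraries. Of the 20 groups of 4 libraries examined in this way about 1 would be marked by chance.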

How the results depend on the processing

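Over 32 member results, 355 of 384 values with 1 library left out and 238 of 252 under the other settings kept their direction and their side of the threshold. With the replicate block the genes called, of 14811 tested, rose to 3576 for Zfp488, 3876 for Nkx2.2 and 6276 for Zfp488 against Nkx2.2. Without the block they were 1339, 1567 and 3741. The members passing went from 0 to 2, 1 to 1 and 1 to 4. The blocked values of Pdgfa (-0.29) and Pdgfc (0.51) with Zfp488 and of Pdgfra (0.39), Pdgfa (-0.32) and Pdgfc (-0.40) between the factors passed. The block changed no other call, and in the other comparisons the numbers did not pair the libraries (r from -0.12 to 0.27 in primary cells). DESeq2 called 2104 genes with Zfp488.

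With only the 8 libraries compared, Pdgfc with Nkx2.2 (0.97) and Pdgfb between the factors (1.74) no longer passed. Without the libraries numbered 3, a choice made after seeing the data, Pdgfa was at -0.030 with Nkx2.2 and -0.28 between the factors. Without differentiating primary libraries 1 and 2, Pdgfc in primary differentiation (0.21), the Pdgfa interaction (-0.63) and Pdgfc between differentiating systems (-0.84) no longer passed. Upper-quartile scaling, for primary cells also tried after seeing the data, gave 0.13 for Pdgfc in primary differentiation and -0.46 for the Pdgfa interaction, neither passing. It moved the median of all genes from -0.02 to -0.20 in primary differentiation, 0.01 to 0.16 in CG4 differentiation, -0.03 to 0.22 in the interaction and 0.10 to -0.10 between proliferating systems, where 4084 genes were higher and 5153 lower in CG4 in place of 5174 and 4229. RLE scaling moved 1 of 24 group levels by over 1 SD, Pdgfra in differentiating primary cells (to 372 CPM).

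With 1 library left out the genes called were 458 (without Zfp488 library 4) to 1604 for Zfp488 and 924 (without Nkx2.2 library 4) to 2302 for Nkx2.2. For Zfp488 they were 877, 800 and 669 without control library 1, 2 and 3 and 620 without Zfp488 library 2, and for Nkx2.2 974 without Nkx2.2 library 2. The log2 differences ranged from -0.0075 to 0.22 for Pdgfra with Zfp488, -0.24 to 0.25 for Pdgfa and 0.82 to 1.17 for Pdgfc with Nkx2.2, and 1.39 to 2.2 for Pdgfb and -0.63 to -0.26 for Pdgfc between the factors. They were -0.84 to 0.10 for Pdgfc in CG4 differentiation, -0.98 to -0.54 for Pdgfa and -1.10 to -0.16 for Pdgfc in the interaction, -0.0096 to 0.21 for Pdgfra between differentiating systems, and -0.33 to 0.10 for Pdgfa and -0.76 to 0.18 for Pdgfc between proliferating systems. The cause of these changes was not tested. Depth limits Pdgfb in proliferating CG4 cells (2 to 13 counts).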
